A study of Mus musculus with 6 samples.

Results

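The genes described here are 38 genes of the DNA replication machinery, which were chosen by name and for their role, with earlier results of these data known. All 38 were represented on the array, by 50 probes, and all 38 passed the filter on dim probes, so they make up 38 of the 19611 genes that were tested. Transcript levels were read on 6 arrays, each hybridised in 1 colour (Cy3) with total RNA of sorted bone marrow cells from C57BL/6 mice. The WT group (WT 1, WT 2 and WT 3) was wild type, and the KO group (KO 1, KO 2 and KO 3) was labelled as a knockout of Spred1, a Sprouty-related inhibitor of Ras signalling. Cells of both groups were sorted as CD48-KSL, that is, c-Kit and Sca-1 were present and CD48 and lineage markers absent. Haematopoietic stem cells and early multipotent progenitors fall in this gate. The labels give no age, treatment or further allele, and do not say whether the 3 samples of a genotype came from separate animals, so the p-values measure only the spread between these samples, which may be technical.

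DNA replication is prepared before S phase, when the origin recognition complex, Cdc6 and Cdt1 load the MCM helicase onto origins, a step called licensing that geminin holds back once S phase has begun. Cdc45 and the GINS complex then turn the loaded MCM ring into an active helicase, polymerase alpha with primase lays down primers, polymerases delta and epsilon extend them on the sliding clamp PCNA, and ribonucleotide reductase and thymidylate synthase supply the nucleotides. Many of these genes are transcribed by E2F factors as cells leave quiescence, so that their summed level in a tissue is often read as a measure of how many cells are cycling. Most haematopoietic stem cells are quiescent, while multipotent progenitors divide more often.

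The promoters of several of these genes carry the short E2F motif, and 6 of them are shown as examples of this sequence feature, which a minority of the genes had. RefSeq promoter windows (build GRCm38.p6, 250 bases before to 50 bases after the annotated start) were searched on both strands for TTTCCCGC, TTTGGCGC, TTTGCCGC and TTTCGCGC. At least 1 of these strings was found in 11 of the 31 genes that the promoter table held (35.5%), against 704 of 27025 genes of the whole table (2.6%) and 457 of the 10299 tested genes it held (4.44%). In 7 of the 11 genes a match lay upstream of the start, and in the other 4 (Cdt1, Mcm3, Pold1 and Lig1) matches lay only after it. Among 48 further replication genes in the table the share was 35.4% (17 genes), and among 21 genes of mitosis it was 4.76% (1 gene). Each line below gives 60 bases, 5′ to 3′ on the strand of the gene, with the matched bases in capitals. In Mcm6 and Mcm5 the capitals cover a pair of overlapping matches, one on each strand.
Rfc3, chr5:151651209-151651268, minus strand: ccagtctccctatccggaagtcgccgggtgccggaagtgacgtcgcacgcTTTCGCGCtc
Mcm6, chr1:128359782-128359841, minus strand: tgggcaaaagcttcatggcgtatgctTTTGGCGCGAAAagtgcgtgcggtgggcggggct
Mcm5, chr8:75109330-75109389, plus strand: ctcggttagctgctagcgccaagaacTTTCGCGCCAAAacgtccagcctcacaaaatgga
Cdc6, chr11:98907987-98908046, plus strand: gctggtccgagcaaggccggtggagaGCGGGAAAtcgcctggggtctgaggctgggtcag
Pola1, chrX:93632260-93632319, minus strand: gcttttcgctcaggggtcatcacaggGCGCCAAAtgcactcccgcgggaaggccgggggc
Orc1, chr4:108579394-108579453, plus strand: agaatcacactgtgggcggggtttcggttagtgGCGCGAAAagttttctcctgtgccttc
The first matched base lay 10 bases upstream of the start in Rfc3, 27 in Orc1, 110 in Mcm6, 138 in Cdc6 and in Pola1, and 153 in Mcm5. A match is a string of letters in the window, and binding was not measured.

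The 6 arrays were alike in brightness, with a 75th percentile of intensity between 345.5 and 417, between 51.4% and 52.6% of probes well above background and correlations between arrays of 0.988 to 0.995. WT 1, WT 2, KO 1 and KO 2 shared a slide and scan, and WT 3 and KO 3 shared the other. The labels do not say which part of Spred1 the knockout lacks, and its 3 probes on chromosome 2 did not move together. At 1 probe the values were 1.21, 1.12 and 1.12 in WT and 0.18, 0.27 and 0.049 in KO, a log2 difference of -0.98 ± 0.095 (SE) in the fit over 27809 probes (limma adjusted p = 0.0543). Another was 2.44 ± 0.16 higher in KO (limma adjusted p = 0.0133), and the third differed by -0.14 ± 0.10 (limma adjusted p = 0.59), so the arrays separated by their labels at 2 of the 3 probes. The gate markers c-Kit (Kit) and Sca-1 (Ly6a) and the stem cell genes Procr, Slamf1, Hlf, Mecom and Fgd5 were well above background on all 6 arrays, and so was Cd48, which the gate selects against. All 10 genes of a neutrophil list were well above background too. Their summed linear level was 102 on WT 1, 527 on WT 2, 492 on WT 3 and 336 to 440 on the KO arrays. The list includes the primary granule genes Mpo, Elane, Prtn3 and Ctsg, so the sum is not a reading of mature neutrophils alone. The B cell genes Ebf1, Pax5 and Igll1 and the T cell gene Cd3g were not well above background on any array.

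No replication gene passed the test between genotypes. With limma over 19611 genes and Benjamini-Hochberg adjustment at 0.05, 0 of the 38 were higher and 0 lower in KO, at a smallest adjusted p of 0.38, while 4 genes of the array passed (0.0204%). In the same fit over probes, 0 of the 47 tested probes of these genes passed, against 9 of all 27809 (0.0324%). Values are log2 intensities after subtraction of the 75th percentile of each array, so that 0 is a signal equal to that percentile, and differences are KO minus WT on that scale. By sign, 36 of the 38 genes (94.7%) were lower in KO and 2 were higher (32 lower after quantile normalization and 35 with normexp background correction), where 51.2% of all genes were lower. The median difference was -0.14, with a range from -0.41 to 0.27, beside a median of -0.0062 over all genes, and the greatest fold was 1.33. At an unadjusted p under 0.05 limma gave 2 genes lower, Rfc3 and Tyms, and 1 higher, Pole, where 5.12% of all genes were lower and 7.06% higher at that p, so that the share of lower genes (5.26%) was near that of the whole array. The KO arrays all lay below the WT arrays for 1 gene, Rfc3 (2.63%, against 10.0% of all genes), and all above them for 1 gene, Pole (2.63%, against 9.53%). In RNA of a bulk sort, fewer cells of a type and less of the transcript per cell cannot be told apart.

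**Figure D1:**
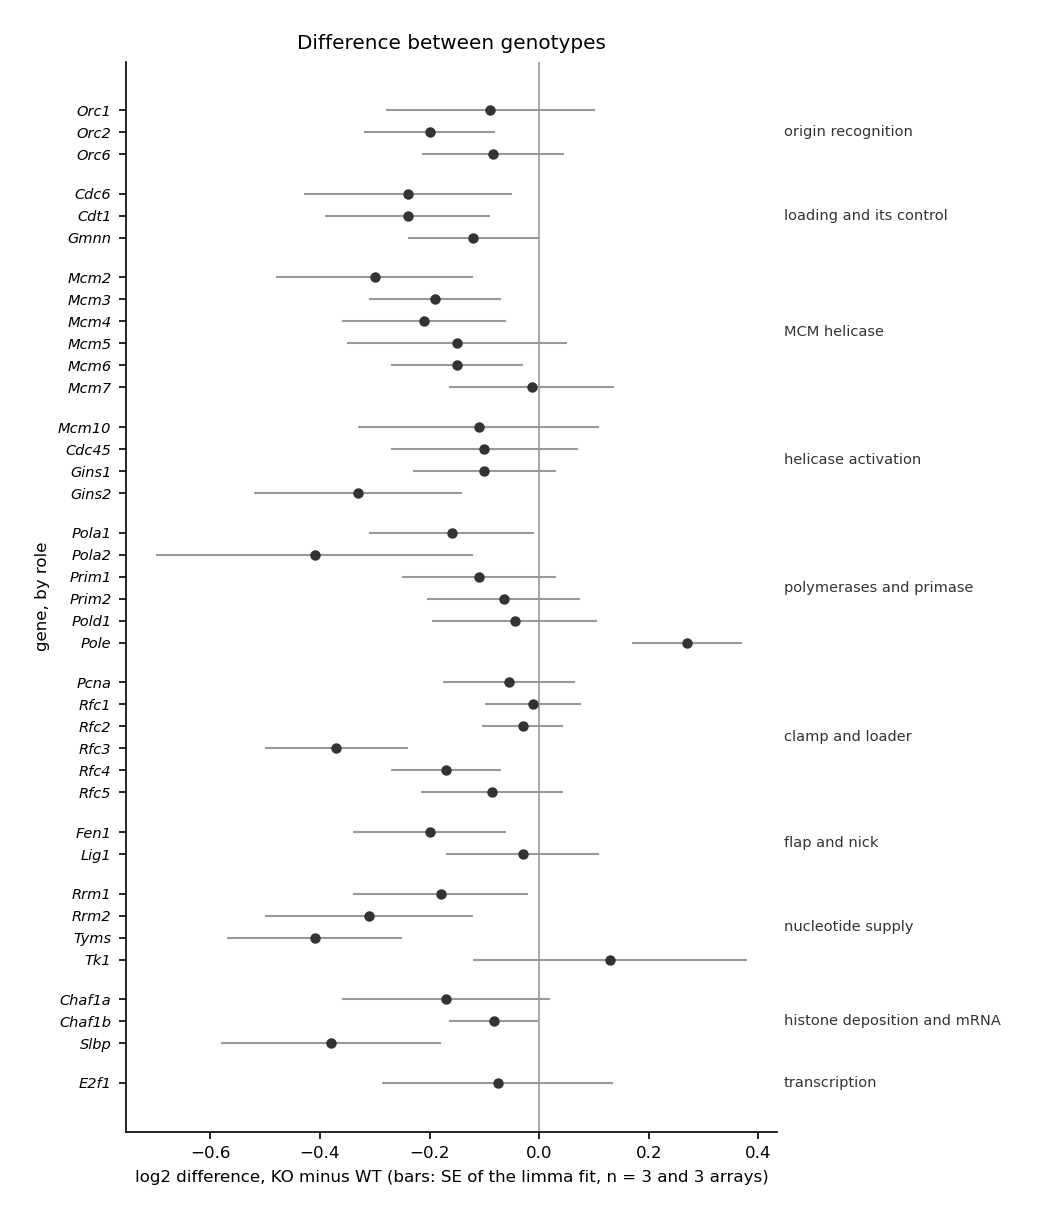
Log2 difference between KO and WT (horizontal axis) for each of the 38 genes, grouped by role, with points for the limma estimate and bars for its SE over 3 and 3 arrays. Of the 38 points, 36 lie left of 0 (32 after quantile normalization and 35 with normexp), and Pole and Tk1 lie right of it.

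These counts moved with single arrays, and the 38 genes share the same 6 libraries. Without WT 2 the median difference was -0.26 and 37 genes were lower in KO, without WT 3 it was -0.040 with 24 lower, and on the first slide alone (2 against 2 arrays) it was -0.046 with 24 lower. On the second slide, with 1 array of each genotype and no test, it was -0.35. At an unadjusted p under 0.05 in limma, 18 genes were lower without WT 2, when 6.01% of all genes were. None was lower without WT 1 (2.85% of all genes) or without WT 3 (4.08%), and none within the first slide (2.28%). Leaving out KO 1, KO 2 or KO 3 gave 1 lower gene each time (3.51%, 6.28% and 2.73% of all genes), which was Tyms, Slbp and Rfc3 in that order. No gene passed the adjusted threshold in any of these fits.

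The level of the whole list differed from array to array within WT. Relative to the WT mean of each gene, the median of the 38 genes was 0.10 on WT 1, -0.28 on WT 2 and 0.16 on WT 3, against -0.091 on KO 1, -0.16 on KO 2 and -0.13 on KO 3. WT 2 lay below all 3 KO arrays and WT 1 and WT 3 above them, so the groups overlapped through WT 2. Over all genes tested the same medians stayed between -0.017 and 0.023. WT 2 was the lowest of all 6 arrays for 21 of the 38 genes (55.3%, against 12.1% of all genes), and the lowest of the WT arrays for 36 (94.7%, against 34.2%), the exceptions being Orc2 and Chaf1b. WT 3 was the highest array for 22 genes (57.9%, against 21.0%) and WT 1 for 12 (31.6%, against 20.9%). The 21 genes with WT 2 as the lowest array are also those with all 3 KO arrays above WT 2 (55.3%, against 26.2% of all genes). This is the same observation, not a further one. The summed level of the neutrophil list was high on both WT 2 and WT 3, which lay at opposite ends for the replication genes. That of the 7 measured erythroid markers was 98.2 on WT 2, 77.2 on WT 1, 81.1 on WT 3 and 75.5 to 81.2 on the KO arrays. A sum is weighted to the brightest genes. By the median used for the replication genes, the erythroid markers were highest on WT 3 (0.29). That median was -0.036 on WT 1, 0.020 on WT 2 and -0.19 to -0.10 on the KO arrays. The part of these markers in the level of the replication genes was not tested.

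**Figure D2:**
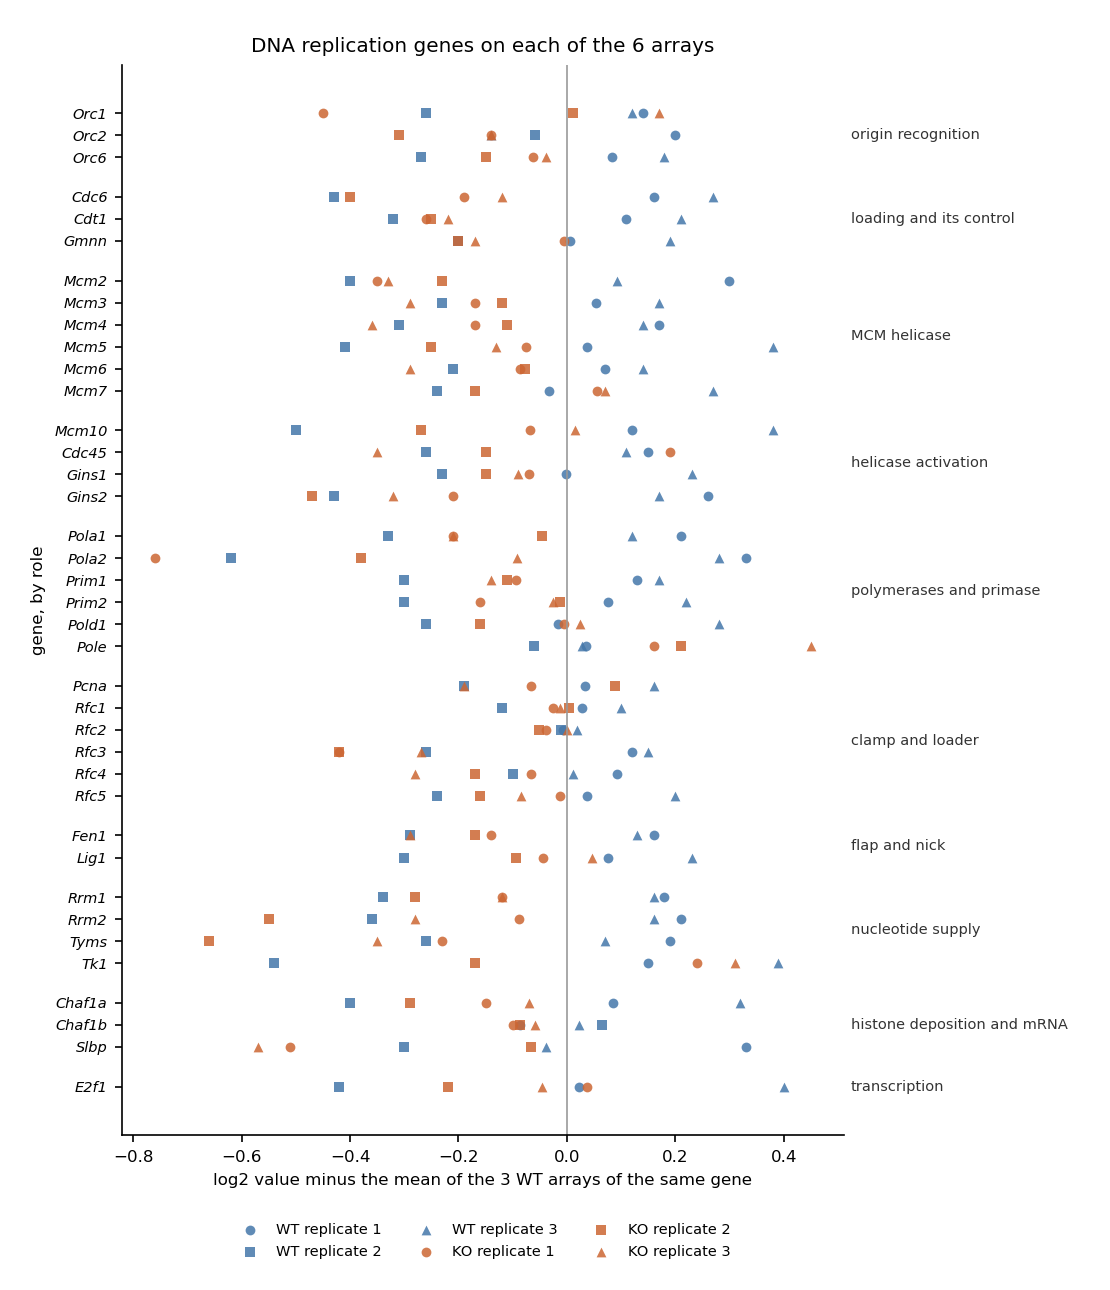
Log2 value of each of the 38 genes on each array minus the mean of its 3 WT arrays (horizontal axis), with WT in blue and KO in orange and the replicate number given by the shape. WT 2 (blue squares) is the lowest array for 21 of the 38 genes, and WT 3 or WT 1 is the highest for 22 and 12.

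The SD between arrays of a genotype was greater in WT than in KO for most of the genes. WT 2 was the lowest WT array for 36 of the 38 genes, so this is not an observation separate from the low level of WT 2. The genes share the same 6 libraries, and whether WT samples vary more in general was not tested. The median SD over 3 arrays was 0.26 in WT and 0.10 in KO, where it was 0.13 in both groups over all genes. The WT SD exceeded the KO SD for 33 of 38 genes (86.8%, against 52.9% of all genes), with Orc1, Cdc45, Pole, Rfc2 and Rfc4 as the exceptions. Cdt1, the licensing factor that brings the MCM ring to origins, had SDs of 0.28 and 0.020. From the lowest to the highest array a gene ranged by 0.53 at the median, against 0.43 for all genes. The narrowest range was 0.069 (1.05-fold), for the clamp loader subunit Rfc2, followed by 0.17 for the chromatin assembly subunit Chaf1b and 0.22 for Rfc1. The widest was 1.09 (2.13-fold), for Pola2, the second subunit of polymerase alpha, whose signal was low (means of -2.37 in WT and -2.78 in KO). Next came 0.93 for thymidine kinase, Tk1.

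**Figure D3:**
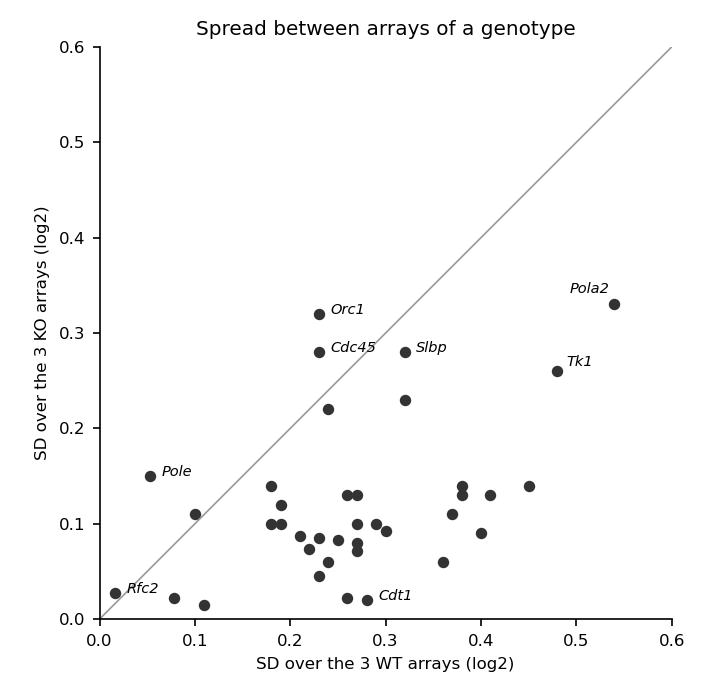
SD of the log2 value over the 3 KO arrays (vertical axis) against the SD over the 3 WT arrays (horizontal axis), 1 point per gene, with a line where both are equal. Of the 38 genes, 33 lie below the line, and for 36 the lowest WT array is WT 2.

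Among the 12 licensing genes, none passed the test and all 12 were lower in KO by sign (except for Mcm7 after quantile normalization and Orc1 with normexp), with a median difference of -0.17. The median level by array was 0.10, -0.26 and 0.18 on WT 1 to WT 3 and -0.16, -0.19 and -0.15 on KO 1 to KO 3. The median difference was -0.28 without WT 2, -0.091 without WT 3 and -0.064 on the first slide. Cdc6, the ATPase that joins the origin recognition complex to recruit the helicase, read -0.26, -0.85 and -0.15 in WT and -0.61, -0.82 and -0.54 in KO. WT 2 lay below every KO array and the other WT arrays above them (difference -0.24 ± 0.19 SE, limma adjusted p = 0.612). Its partner Cdt1 read 4.20, 3.77 and 4.31 in WT and 3.84, 3.85 and 3.87 in KO. The KO arrays lay close together, while WT 2 lay below and WT 1 and WT 3 above them (-0.24 ± 0.15, limma adjusted p = 0.511). Geminin (Gmnn), which binds and blocks Cdt1, read 0.008, -0.20 and 0.19 in WT and -0.0045, -0.20 and -0.16 in KO. WT 3 was the highest array, and WT 2 and KO 2 were the lowest (-0.12 ± 0.12, limma adjusted p = 0.672).

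Of the 6 MCM subunits, which form the ring of the replicative helicase, differences ran from -0.30 to -0.014. Mcm2 read 3.17, 2.47 and 2.96 in WT and 2.52, 2.63 and 2.53 in KO, so that WT 2 was again the lowest array and the KO arrays lay close together (-0.30 ± 0.18, limma adjusted p = 0.5). Mcm5 read 3.82, 3.37 and 4.16 in WT and 3.71, 3.53 and 3.65 in KO. Here the WT arrays spanned all KO values (-0.15 ± 0.20, limma adjusted p = 0.741), and the sign turned on the first slide (0.024). Mcm3, Mcm4 and Mcm6 were lower by 0.19 ± 0.12, 0.21 ± 0.15 and 0.15 ± 0.12 (log2 differences -0.19, -0.21 and -0.15). For these 3 the lowest array was KO 3, not WT 2. Mcm7 differed by -0.014 ± 0.15, which turned to 0.013 after quantile normalization. The 3 origin recognition subunits differed by -0.089 ± 0.19 (Orc1), -0.20 ± 0.12 (Orc2) and -0.084 ± 0.13 (Orc6), and the sign of Orc1 turned after normexp background correction (0.025).

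The 4 factors that activate the helicase differed by -0.10 to -0.33, with a median of -0.11 that was 0.011 on the first slide. Gins2, a subunit of the GINS complex, read 0.065, -0.63 and -0.034 in WT and -0.41, -0.67 and -0.52 in KO. WT 2 lay among the KO arrays and the other WT arrays above them (-0.33 ± 0.19, limma adjusted p = 0.496). The other GINS subunit, Gins1, differed by -0.10 ± 0.13, Cdc45 by -0.10 ± 0.17 and Mcm10, which acts as the helicase starts to unwind, by -0.11 ± 0.22.

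The 6 polymerase and primase genes had a median difference of -0.089, with 5 lower and 1 higher by sign, and that median was 0.0053 on the first slide and 0.009 without WT 3. Their median level by array was 0.10, -0.30 and 0.20 in WT and -0.13, -0.078 and -0.059 in KO. Pole, the catalytic subunit of polymerase epsilon, which extends the leading strand, read 3.29, 3.19 and 3.28 in WT and 3.41, 3.46 and 3.70 in KO. It was the one gene of the 38 with every KO array above every WT array, and WT 2 lay close to the other WT arrays (0.27 ± 0.10, 1.21-fold, limma adjusted p = 0.393). Its difference ran from 0.19 to 0.33 over the alternatives, with unadjusted p from 0.0192 to 0.15 and adjusted p from 0.291 to 0.821 in limma. A second, dimmer Pole probe differed by 0.25 ± 0.24, but it passed the filter only through KO and is not a sound second reading. It was well above background on 3 KO and 2 WT arrays. Another was not well above background in enough arrays to be tested. Pola1, the catalytic subunit of polymerase alpha, read 2.20, 1.66 and 2.11 in WT and 1.78, 1.94 and 1.78 in KO, so that WT 2 was the lowest array and the KO arrays lay below WT 1 and WT 3 (-0.16 ± 0.15, limma adjusted p = 0.674). Pola2, whose signal was low (means of -2.37 in WT and -2.78 in KO), differed by -0.41 ± 0.29. With normexp background correction the difference of Pola2 was -0.13 ± 0.14. The primase subunits Prim1 and Prim2 differed by -0.11 ± 0.14 and -0.065 ± 0.14, and Pold1, the catalytic subunit of polymerase delta, by -0.045 ± 0.15.

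The sliding clamp and its loader had the narrowest spread by array of the role groups, with a median between -0.16 and 0.12 on the 6 arrays and a median difference of -0.071. Pcna, the clamp itself, read 5.37, 5.14 and 5.49 in WT and 5.27, 5.42 and 5.14 in KO. The groups covered nearly the same range (-0.055 ± 0.12, limma adjusted p = 0.861). Rfc3, a clamp loader subunit, read 0.43, 0.050 and 0.46 in WT and -0.11, -0.11 and 0.040 in KO. Every KO array lay below every WT array, but KO 3 and WT 2 nearly met (-0.37 ± 0.13, 1.29-fold, limma adjusted p = 0.38). The difference of Rfc3 ran from -0.50 to -0.30 over the alternatives, with limma unadjusted p from 0.00281 to 0.0948 and adjusted p from 0.279 to 0.82. Rfc4 read 2.93, 2.73 and 2.85 in WT and 2.77, 2.67 and 2.56 in KO, with overlap between KO 1 and WT 2 (-0.17 ± 0.10, limma adjusted p = 0.492). Rfc1, Rfc2 and Rfc5 differed by -0.011 ± 0.088, -0.030 ± 0.074 and -0.086 ± 0.13, and the signs of Rfc1 and Rfc2 turned after quantile normalization (0.024 and 0.011). Of the genes that finish lagging-strand fragments, the flap nuclease Fen1 differed by -0.20 ± 0.14 and the ligase Lig1 by -0.030 ± 0.14, with 0.011 for Lig1 after quantile normalization.

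The 4 genes of nucleotide supply had a median difference of -0.24, with 3 lower and 1 higher by sign. It was -0.42 without WT 2, -0.14 without WT 1, -0.15 without KO 2 and -0.18 on the first slide. Their median level was 0.19, -0.35 and 0.16 in WT and -0.11, -0.42 and -0.20 in KO, so KO 2 and WT 2 were the low arrays. Tyms, thymidylate synthase, read -1.62, -2.08 and -1.75 in WT and -2.05, -2.47 and -2.16 in KO. Only KO 1 and WT 2 overlapped, and the slides gave -0.41 and -0.42 (-0.41 ± 0.16, 1.33-fold, limma adjusted p = 0.4). Over the alternatives the difference of Tyms ran from -0.54 to -0.18, the latter with normexp background correction, with unadjusted p from 0.00558 to 0.144 and adjusted p from 0.329 to 0.821. Rrm2, the small subunit of ribonucleotide reductase that limits its activity outside S phase, read 2.16, 1.59 and 2.11 in WT and 1.87, 1.40 and 1.67 in KO. KO 2 was the lowest array and WT 2 the next (-0.31 ± 0.19, limma adjusted p = 0.517), and the large subunit Rrm1 differed by -0.18 ± 0.16. Tk1, which salvages thymidine, read 1.98, 1.28 and 2.21 in WT and 2.07, 1.65 and 2.13 in KO, with WT 2 the lowest and WT 3 the highest array (0.13 ± 0.25, limma adjusted p = 0.843, and -0.14 without WT 2).

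Licensing, polymerase and nucleotide genes thus had medians of -0.17, -0.089 and -0.24, and the difference between these groups was not tested. The medians of single WT arrays ran from -0.26 to 0.18 for licensing, -0.30 to 0.20 for polymerases and -0.35 to 0.19 for nucleotide supply. A range over single arrays is a wider measure than a difference between group means, so their sizes cannot be set against each other.

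Among the 3 genes of histone deposition and histone mRNA the median difference was -0.17. Slbp, which binds the stem-loop of histone mRNAs, read 0.92, 0.29 and 0.55 in WT and 0.074, 0.52 and 0.016 in KO. KO 2 lay among the WT arrays and KO 1 and KO 3 below all of them (-0.38 ± 0.20, limma adjusted p = 0.467). The chromatin assembly subunits Chaf1a and Chaf1b differed by -0.17 ± 0.19 and -0.083 ± 0.081. E2f1, a transcription factor of these genes, read 1.34, 0.89 and 1.71 in WT and 1.35, 1.10 and 1.27 in KO, with the WT arrays on both sides of all KO values (-0.076 ± 0.21, limma adjusted p = 0.888, and 0.11 on the first slide).

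Most genes rested on 1 probe: 29 of the 38 had a single probe and 9 had several, with 3 of the 50 probes (1 each of Pole, Tk1 and Chaf1b) too dim to test. For the 9 genes the brightest probe was used, and 7 of them had a second tested probe with the same sign. Prim2 and Tk1 did not. The count of 7 includes Gmnn and Pole, whose second probes are not sound second readings. That of Gmnn lies on the opposite strand, and that of Pole passed the filter only through KO. The RefSeq probe of Prim2 (mm9 chr1:33510733-33510792) differed by -0.065 ± 0.15 and a clone-derived probe (chr1:33535912-33535971) by 0.15 ± 0.11, at -0.75, -0.99 and -0.85 in WT and -0.72, -0.81 and -0.61 in KO. The RefSeq probe of Tk1 (chr11:117676845-117676904) differed by 0.13 ± 0.26 and a second one (chr11:117683390-117683449) by -0.16 ± 0.23, at -0.11, -0.88 and -0.082 in WT and -0.70, -0.54 and -0.31 in KO. On both Tk1 probes WT 2 was the lowest array, and none of the pairs lay over 1.5-fold apart. A second Gmnn probe (chr13:24854006-24854065) lay on the plus strand, opposite to the strand of the gene, so that it cannot be taken as a reading of Gmnn (-0.16 ± 0.24).

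**Figure D4:**
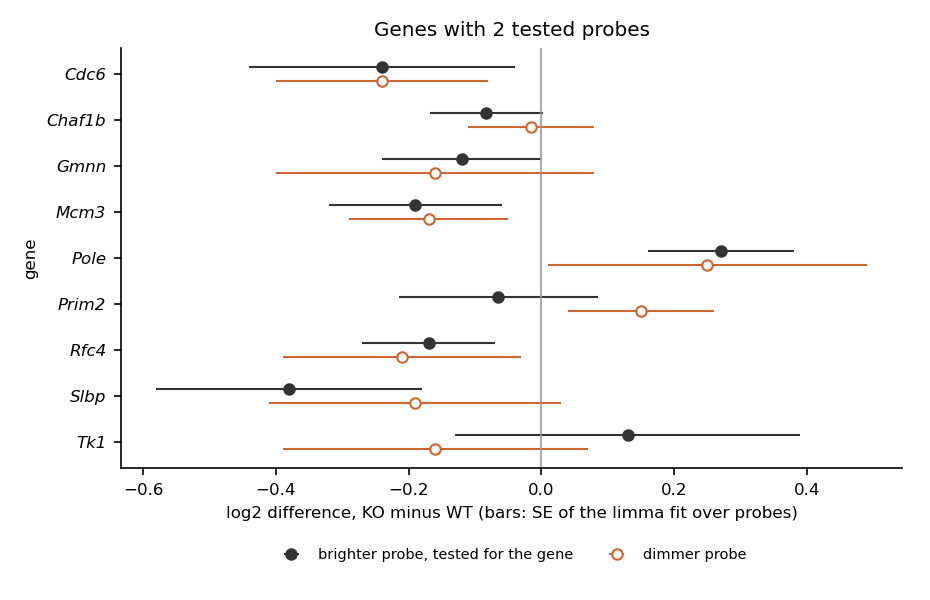
Log2 difference between KO and WT (horizontal axis) of the brighter, filled, and the dimmer, open, tested probe of the 9 genes with 2 tested probes, with bars for the SE of the limma fit over probes. The pairs of Prim2 and Tk1 lie on both sides of 0, and both Pole probes lie right of it. The dimmer Pole probe passed the filter only through KO, and the dimmer Gmnn probe lies on the strand opposite to the gene.

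The 2 Mcm3 probes overlap by 43 bases, so close readings from them do not show how well separate probes of a gene agree. In the overlap the Mcm3 probes differ by 1 base, A31G, counted from 1 at the 5′ end of the RefSeq probe. Around it 30 bases are given with that base in capitals.
Mcm3, RefSeq probe: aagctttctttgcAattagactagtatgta
Mcm3, clone probe: aagctttctttgcGattagactagtatgta
The RefSeq probe read 5.17, 4.89 and 5.29 in WT and 4.95, 5.0 and 4.83 in KO, and the clone probe 4.44, 4.13 and 4.53 in WT and 4.19, 4.23 and 4.18 in KO. Both put WT 2 below WT 1 and WT 3, and the differences were -0.19 ± 0.13 and -0.17 ± 0.12 in the fit over probes.

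A list of 57 other replication genes, of which 56 were measured, ran alongside. None passed the test, 41 were lower and 15 higher by sign, and the median difference was -0.088. At an unadjusted p under 0.05, 3 were lower in limma (5.36%, near the 5.12% of all genes) and 0 higher. By array the median was 0.027, -0.19 and 0.14 in WT and -0.042, -0.094 and -0.090 in KO, with WT 2 lowest and WT 3 highest as among the 38 genes. Dna2, a nuclease that trims flaps, differed by -0.46 ± 0.16 (limma adjusted p = 0.379), Dctd, which makes deoxyuridine monophosphate for thymidylate synthesis, by -0.34 ± 0.13 (adjusted p = 0.393) and Nasp, a histone chaperone, by -0.37 ± 0.14 (adjusted p = 0.393). The transcription factor E2f2 differed by -0.24 ± 0.10 (limma adjusted p = 0.415). For Dctd and E2f2 all KO arrays lay below all WT arrays, and 4 of the 56 genes did so (7.14%, against 10.0% of all genes).

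Genes of mitosis, which act after replication, were also lowest on WT 2, and their median difference between genotypes was 0.032. Of 26 listed, 23 were measured, none passed the test or an unadjusted p under 0.05, and 9 were lower and 14 higher in KO by sign. Their median by array was 0.15, -0.42 and 0.24 in WT and 0.16, -0.14 and 0.062 in KO, and WT 2 was the lowest array for 21 of the 23 (91.3%). This median turned to -0.19 without WT 2 and to -0.034 without KO 1. KO 1 lay at the level of WT 1 for mitosis genes (0.16 and 0.15) and below it for the replication genes (-0.091 and 0.10), and this difference between the lists was not tested. The gene of smallest p was Bub1b, a spindle checkpoint kinase, at -0.39 ± 0.17 (limma adjusted p = 0.427), followed by the centromeric histone Cenpa at 0.17 ± 0.11, the kinesin Kif23 at 0.15 ± 0.13 and the mitotic kinase Cdk1 at -0.21 ± 0.19. The WT SD exceeded the KO SD for 21 of the 23 genes (91.3%) and for 40 of the 56 other replication genes (71.4%). WT 2 was the lowest WT array for 22 of the 23 and for 49 of the 56, so this too is not separate from its low level.

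**Figure D5:**
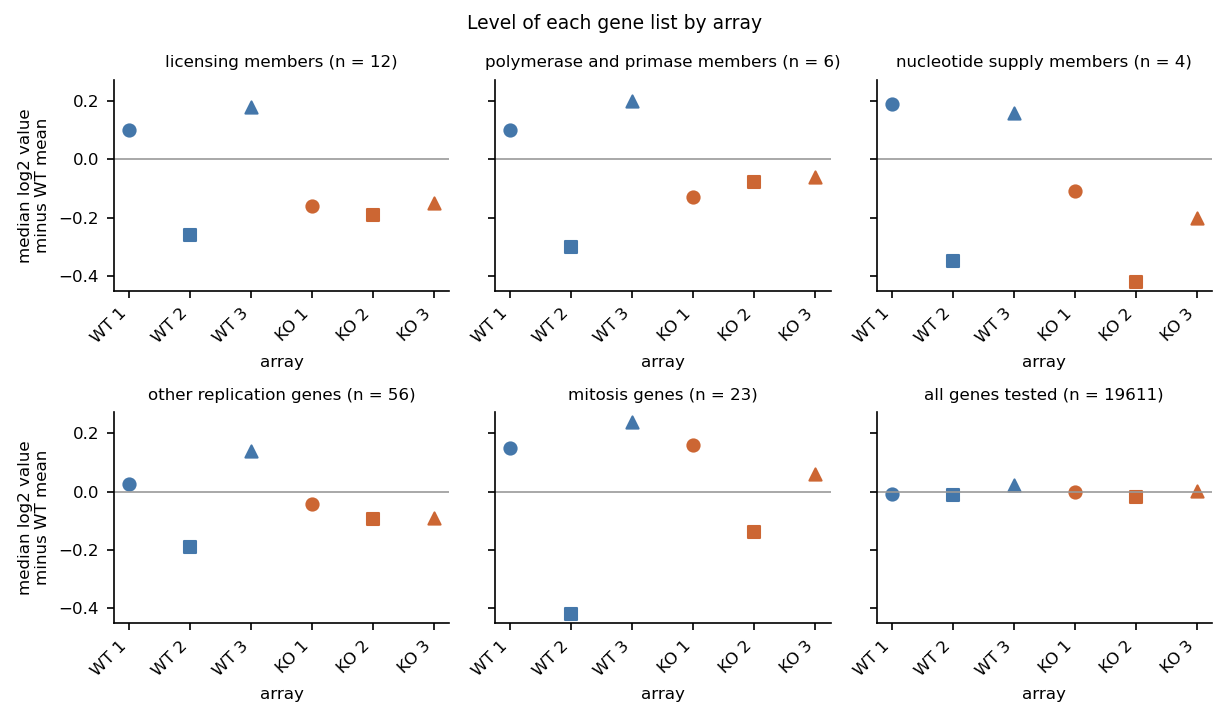
Median over the genes of a list of the log2 value minus the WT mean of each gene (vertical axis), by array, for the licensing, polymerase and nucleotide genes, the other replication genes, the mitosis genes and all genes tested. WT 2 is the lowest array of every list but nucleotide supply, where KO 2 is lower at -0.42, and all genes, whose medians stay between -0.017 and 0.023.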

How the data were processed

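Scanner files were read as deposited. Per the file headers the values are processed-signal intensities from Agilent Feature Extraction 10.7.3.1, background-corrected within each array on a linear scale, with positions on mm9. A value table deposited by the authors, used as an alternative, holds these intensities over a single divisor for each array (304.4 to 368.2), linear and not centred, with column medians of 0.0638 to 0.075. Control spots and the 92 to 155 outlier spots per array were left out, and 0 were saturated. Log2 was taken, the 75th percentile of each array was subtracted, and replicate spots were then averaged per probe on the log2 scale. The brightest probe stood for a gene, kept where every array of WT, of KO or of both called it well above background. KO was compared with WT over the 19611 genes with limma 3.58.1 (lmFit, eBayes; R 4.3.3) and no covariate, and likewise over 27809 probes. The script was tested on simulated data. The 38 genes, the lists and the motifs were chosen with earlier results of these data known. Array values are given for up to 6 genes of smallest p in each direction and for 10 further genes set by name, and up to 4 genes are named from each other list. The number of arrays limits the precision. Accessions of 43 probes were found in the RefSeq table, all under the same symbol. Names of the role groups follow textbook function.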

Additional observations from a re-analysis of the deposited data

How the results depend on the processing

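Over 15 alternatives, 0 of the 38 replication genes passed the adjusted threshold, at a lowest limma adjusted p of 0.279. Of 570 single-gene differences 530 kept their sign, but many of these could not turn. The replicate and slide blocks and the changes of filter leave each of these differences as it was. The authors' value table changes it only through the divisor of each array. The count of 530 is therefore no measure of robustness. Of all genes, 2 were higher and 2 lower in the reported fit. These counts were 1 and 0 with quantile normalization, 5 and 5 with normexp background correction, 0 and 0 without a filter, 1 and 0 with probes above background on all 6 arrays, 5 and 4 with the mean of all probes, 0 and 0 with the replicate block, 2 and 1 with a slide block, 0 and 1 within slide 1, and 0 to 1 and 0 to 3 with 1 array left out. The 2 genes lower at an unadjusted p under 0.05 were 1 with normexp, without a filter and with a slide block (6.48%, 2.78% and 4.81% of all genes), 0 within slide 1, and 0 to 18 with 1 array left out. The polymerase median was 0.0053 within slide 1 and -0.24 to 0.009 with 1 array left out, and the mitosis median -0.19 to 0.15 with 1 array left out. The cause was not tested.

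The sign turned in 16 genes. After quantile normalization the differences were 0.011 (Lig1), 0.013 (Mcm7), 0.024 (Rfc1) and 0.011 (Rfc2), with normexp 0.025 (Orc1), and with the mean of all probes 0.044 (Prim2) and -0.015 (Tk1). Within slide 1 they were 0.075 (Cdc45), 0.11 (E2f1), 0.002 (Gins1), 0.045 (Lig1), 0.02 (Mcm10), 0.024 (Mcm5), 0.079 (Mcm7), 0.092 (Pcna), 0.057 (Pold1), 0.028 (Prim2), 0.038 (Rfc1) and 0.013 (Rfc5). With 1 array left out they ran from -0.25 to 0.021 (Cdc45), -0.29 to 0.12 (E2f1), -0.22 to 0.01 (Gins1), -0.18 to 0.083 (Lig1), -0.36 to 0.081 (Mcm10), -0.36 to 0.035 (Mcm5), -0.13 to 0.12 (Mcm7), -0.22 to 0.091 (Orc1), -0.22 to 0.0074 (Orc6), -0.15 to 0.024 (Pcna), -0.18 to 0.092 (Pold1), -0.21 to 0.047 (Prim2), -0.074 to 0.037 (Rfc1), -0.20 to 0.014 (Rfc5) and -0.14 to 0.32 (Tk1).

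The replicate numbers were not taken to pair the samples: deviations of same-numbered samples from the group means correlated at -0.025, 0.153 and 0.071. WT 3 and KO 3 shared the second slide, and the other 4 arrays the first. With the replicate number as a block, 0 of the 38 genes passed, and at an unadjusted p under 0.05 limma gave 3 lower, against 4.36% of all genes.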
